A study of Mus musculus with 10 samples.

Results

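This account covers where p65 was bound on chromatin in regulatory T cells (Treg) after 3 h of stimulation through CD3 and CD28, compared with unstimulated Treg. Overlapping entries of each Treg peak list were merged into regions, and 2 regions from different lists counted as shared when they had 1 bp or more in common. Of 11077 stimulated regions, 8564 had no unstimulated counterpart and are called gained, and 2513 were shared. Of 3208 unstimulated regions, 2515 were shared and 693 had no stimulated counterpart and are called lost. Together the Treg lists held 14285 of the 22980 regions in the 4 lists of the series. A gained region is one that the authors' peak calling found after stimulation alone, which is not a measure of zero binding before it.

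The study measured p65 binding by ChIP-seq, the sequencing of DNA fragments pulled down with an antibody, in Treg and in conventional T cells (Tconv), 4 groups of 2 libraries, with 2 further libraries of input chromatin from all groups mixed. All cells came from spleens and lymph nodes of C57BL/6 mice, with no genetic alteration given in the labels. Stimulated cells were kept for 3 h on plates carrying antibody against CD3, with antibody against CD28 in solution and IL-2 at 10 ng/ml for Treg or 2 ng/ml for Tconv. How unstimulated cells were kept, and with how much IL-2, is not stated in the labels, so stimulation, culture and IL-2 cannot be told apart. Each group had 1 peak list, made by the authors from its libraries together. No spread between replicates can therefore be given and no test across samples was possible. The intervals in brackets are 95% Wilson intervals over regions, which cover counting error alone, and regions are neither replicates nor independent. The depth of the libraries is unknown.

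NF-kB is a family of dimeric transcription factors, and p65, the product of Rela, is a member with a strong activation domain that responds quickly to receptor signals. In resting cells IkB proteins hold the dimers in the cytoplasm. Signals from the T cell receptor and CD28 reach the IkB kinases through protein kinase C theta, IkB is destroyed, and p65 enters the nucleus and binds promoters and enhancers. Among its known targets are its own inhibitors, which close a feedback loop, and in Treg the NF-kB pathway is needed for the cells to form and to keep their activated state. NRF1, nuclear respiratory factor 1, is a different factor that occupies GC-rich palindromes at the starts of housekeeping and mitochondrial genes.

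The sequences shown here are stretches of RefSeq promoter windows (build GRCm38.p6, with the coordinates of mm10), each taken from the window under a Treg summit and ending at or before the annotated gene start. The windows span 250 bases before to 50 bases from a gene start. The first set shows gene starts with a match to the NF-kB consensus, the degenerate 10-base site of the family, in capitals, which run on where matches overlap. Regions at Tnfaip3, Nfkb2, Rel and Nfkbie were shared, and those at Il2ra and Tnfrsf9 were gained. They were chosen from the named genes after their values were seen, because they are target genes with the site in the window.
Tnfaip3 (chr10:19015501-19015560, minus strand): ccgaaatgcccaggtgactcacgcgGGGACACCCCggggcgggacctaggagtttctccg
Nfkb2 (chr19:46304673-46304732, plus strand): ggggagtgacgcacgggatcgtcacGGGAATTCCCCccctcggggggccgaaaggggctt
Rel (chr11:23771026-23771085, minus strand): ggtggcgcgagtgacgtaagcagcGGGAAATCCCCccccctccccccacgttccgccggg
Nfkbie (chr17:45555569-45555628, plus strand): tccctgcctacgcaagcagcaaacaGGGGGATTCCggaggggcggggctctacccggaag
Il2ra (chr2:11642567-11642626, plus strand): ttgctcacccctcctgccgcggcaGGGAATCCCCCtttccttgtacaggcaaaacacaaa
Tnfrsf9 (chr4:150927931-150927990, plus strand): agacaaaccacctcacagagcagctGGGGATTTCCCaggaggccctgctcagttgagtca

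The second set shows gene starts with the NRF1-type motif in capitals (GCGC, any base, then TGCGC, read on both strands), which set the shared and lost regions at gene starts apart from the gained ones. The windows of Armc6 (beside the start of Sugp2), Rab3gap2 and Nadk held shared regions, among the strongest in unstimulated Treg. The windows of Pink1, Dynlrb2 and Dhx37 held lost regions.
Armc6 (chr8:70234467-70234526, minus strand): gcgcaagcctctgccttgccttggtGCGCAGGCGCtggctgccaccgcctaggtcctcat
Rab3gap2 (chr1:185204020-185204079, plus strand): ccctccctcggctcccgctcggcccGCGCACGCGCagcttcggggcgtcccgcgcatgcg
Nadk (chr4:155563780-155563814, plus strand): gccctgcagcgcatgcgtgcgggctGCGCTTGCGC
Pink1 (chr4:138326297-138326331, minus strand): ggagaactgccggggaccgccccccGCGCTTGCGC
Dynlrb2 (chr8:116504895-116504954, plus strand): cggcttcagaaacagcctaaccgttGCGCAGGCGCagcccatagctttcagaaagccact
Dhx37 (chr5:125434091-125434150, minus strand): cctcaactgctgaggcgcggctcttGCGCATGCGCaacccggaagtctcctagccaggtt

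Gained regions covered the whole range of strength in the stimulated list. The median fold enrichment of a summit over its local background, a value of the authors' peak caller, was 11.1 for gained regions (lowest 2.56, highest 99.6) and 12.98 for shared regions of the same list (2.08 to 101.6). When the stimulated list was cut into deciles by fold, 10 groups of equal size, the share of gained regions was 70.9% (68.1 to 73.5) in the strongest decile and 85.9% (83.7 to 87.8) in the weakest. Lost regions lay in the weaker part of the unstimulated list. Their median fold was 7.14, with a highest value of 24.6, against 8.96 and 92.5 for the shared regions of that list. In the strongest decile 2 of 321 unstimulated regions were lost (0.623%, 0.171 to 2.24), and in the weakest 107 of 320 were (33.4%, 28.5 to 38.8). The lists end at different strengths, at a −log10 p of 26.6 for stimulated and 15.1 for unstimulated regions. Of the 693 lost regions, 335 (48.3%) were below the lowest stimulated value. Among shared unstimulated regions 827 (32.9%) were below it.

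**Figure D1:**
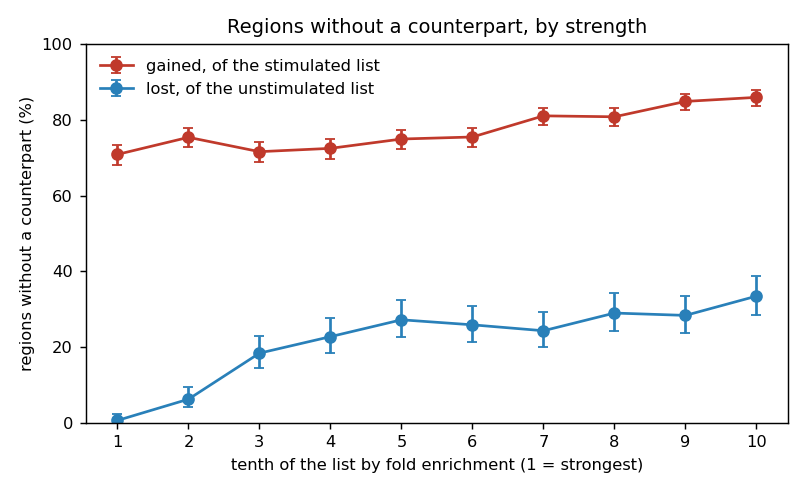
Percent of regions without a counterpart in the other Treg list (y axis) by decile of each list, ranked by the authors' fold enrichment with the strongest decile at 1 (x axis). Points are shares and bars are 95% Wilson intervals over regions; gained shares run from 70.9% to 85.9%, and lost shares from 0.623% to 33.4%.

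Under the 1 bp rule, few regions lay close to the border between classes. Stricter rules moved more: the lost share of 21.6% became 35.2% when at least 50% of each region had to overlap. It was 32.4% with summits within 200 bp. Shared pairs overlapped by a median of 844 bp and 5 of the 2530 pairs by less than 100 bp, with the smallest overlap at 3 bp. The smallest gap between a gained region and an unstimulated region was 116 bp, and 163 gained regions lay within 1 kb of an unstimulated region. Summits of shared pairs moved little, with a median shift of 30 bp between the lists and 80.4% of pairs within 100 bp. The stimulated region was the wider of the pair in 76.5% of cases and had more summits in 19.9%, against 3.08% with more summits in the unstimulated list. Of the 693 lost regions, 7 had a stimulated summit within 1 kb of their own summit, 90 within 10 kb and 337 within 50 kb.

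Gained regions mostly lay inside and between genes, whereas shared and lost regions mostly lay at gene starts. The summit was within 1 kb of either end of a protein-coding gene in 22.4% of gained regions (21.5 to 23.3), 69.2% of shared regions (67.4 to 71.0) and 70.1% of lost regions (66.6 to 73.4). Gained regions were inside a gene, away from its ends, in 45.2% of cases, outside but within 50 kb of a gene in 23.3%, and farther away in 9.13%. The median distance from summit to the nearest RefSeq gene start was 11475 bp for gained, 165 bp for shared and 133 bp for lost regions. A summit lay within 100 bp of a gene start in 11.5% of gained (10.9 to 12.2), 39.8% of shared (37.9 to 41.8) and 44.7% of lost regions (41.1 to 48.4). The intervals for shared and lost regions overlapped, and those for gained regions did not reach either.

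**Figure D2:**
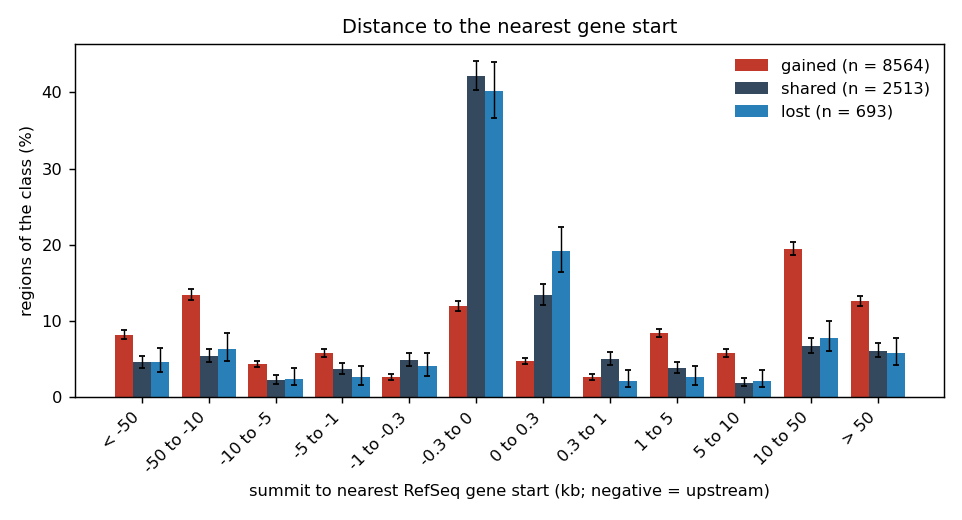
Percent of gained, shared (as counted in the stimulated list) and lost regions (y axis) by signed distance from the strongest summit to the nearest RefSeq gene start in kb, negative before the start (x axis). Bars are shares of each class with 95% Wilson intervals; the 0.3 kb before the start held 12.0% of gained, 42.2% of shared and 40.3% of lost regions.

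At gene starts, shared and lost regions carried the NRF1-type motif about as often as each other, and gained regions carried it far less. The motif stood in the promoter window under the summit for 531 of 1264 shared regions (42.0%, 39.3 to 44.8) and 138 of 348 lost regions (39.7%, 34.7 to 44.9). It did so for 54 of 1230 gained regions (4.39%, 3.38 to 5.68). Among all 32851 promoter windows 4.60% held the motif, and among windows that no Treg region overlapped 1.77% did. The gained share at gene starts was close to that of all windows and above the 1.77% of windows without a Treg region. By the sorting rule a gained region overlaps no unstimulated region, so windows covered by one were mostly not open to gained regions. Read from the windows, 932 of the 1512 with the motif were overlapped by an unstimulated Treg region (61.6%, 59.2 to 64.1), against 2916 of all 32851 windows (8.88%). A gained region overlapped 95 of the 1512 (6.28%, 5.17 to 7.62), against 7.52% of all windows. Both shares count windows that an unstimulated region covered, 61.6% of those with the motif and 8.88% of all. They therefore do not show that gained regions avoided the motif. A region of either Treg list overlapped 1027 of the 1512 windows with the motif (67.9%) and 5465 of all windows (16.6%). Among windows outside unstimulated regions, stimulated regions thus covered a larger share of those with the motif than of all.

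The difference in motif share was present at each level of strength and in CpG-rich windows. Within single deciles of the stimulated list, the motif share ran from 1.06% to 8.33% for gained regions and from 32.1% to 48.5% for shared regions. In the strongest decile it was 1 of 22 gained (0.807 to 21.8) and 18 of 56 shared regions (21.4 to 45.2), with intervals that overlapped. By the sorting rule shared regions are also in the unstimulated list, where 42.3% of gene-start regions held the motif, and gained regions are not. Among windows with at least 15 CpG, of which 12.3% held the motif, the share was 5.65% of windows under gained summits (4.45 to 7.16), 43.8% under shared and 42.4% under lost summits. The 12.3% includes windows under unstimulated regions, which were mostly not open to gained regions, so it is not a baseline for the gained share. This limit on CpG was chosen after the data were seen. In the unstimulated list the motif share followed strength, from 77.0% (71.1 to 82.0) of gene-start regions in the strongest decile to 13.5% and 23.6% in the eighth and the weakest deciles. In the stimulated list it lay between 16.3% and 32.5% in every decile.

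The summit sat on the motif more closely in the unstimulated list. The median distance from summit to the centre of the nearest motif was 16.5 bp for shared regions of the unstimulated list, with 66.4% (62.3 to 70.2) within 25 bp, and 15 bp for lost regions, with 68.1% (59.9 to 75.3). It was 30.5 bp for shared regions as seen in the stimulated list, with 42.2% (38.0 to 46.4) within 25 bp, and 67.5 bp for the 54 gained regions. For the Sp-type motif GGGCGG, which 35.7% of all windows hold, the medians were between 32.5 and 36.5 bp in every class. The share of gene-start regions with the NRF1-type motif was lower in the stimulated list of both cell types. It was 42.3% in unstimulated and 23.5% in stimulated Treg. In the Tconv lists, which were not used to sort the Treg regions, it was 44.6% (42.2 to 47.1) and 34.0% (31.6 to 36.4). By strength the cell types differed: in stimulated Tconv the share ran from 51.1% in the strongest decile to 26.1% in the weakest. A match in a window is a description of its letters, and binding of NRF1 was not measured.

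The NF-kB consensus followed strength in the stimulated list. It stood in 19.2% (12.0 to 29.3) of gene-start regions in the strongest decile, 15.3% in the next and 4.20% (2.30 to 7.56) in the weakest, where 4.51% of all windows held it. By class the share was 6.50% of gained (5.26 to 8.02), 8.07% of shared (6.69 to 9.70) and 6.03% of lost regions (3.98 to 9.05), with intervals that overlapped. In the unstimulated list the strongest decile held it in 9 of 226 gene-start regions (3.98%, 2.11 to 7.39), near the share of all windows. Over the deciles of that list the share ran from 3.38% in the eighth to 14.2% (9.27 to 21.1) in the fifth. The whole unstimulated list held it in 7.83% (6.63 to 9.23) of gene-start regions and the stimulated list in 7.30%, against 4.51% of all windows. These windows do not reach the gained regions away from gene starts, whose sequence was not analysed here.

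**Figure D3:**
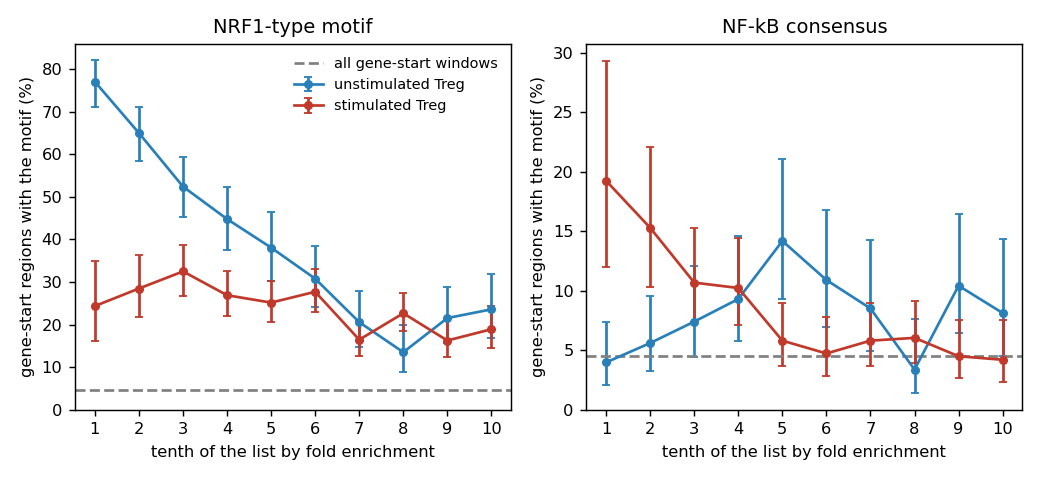
Percent of regions with their summit in a promoter window whose window holds the NRF1-type motif (left) or the NF-kB consensus (right), on the y axes, by decile of each Treg list with the strongest at 1 (x axes). Points are shares with 95% Wilson intervals and the dashed line is the share of all 32851 windows; the NRF1-type share falls from 77.0% in the unstimulated list, and the consensus share falls from 19.2% to 4.20% in the stimulated list.

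Other promoter motifs differed less between classes. Windows under Treg summits were richer in CpG than all windows, with medians of 23 (gained), 29 (shared) and 27 (lost) against 7. The shares below, and those of the NF-kB consensus, were not matched for CpG. The ETS motif CCGGAAGT stood in 12.7% of gained (10.9 to 14.7), 10.8% of shared and 8.33% of lost regions at gene starts, against 3.89% of all windows. The CREB motif TGACGTCA stood in 5.77% of gained (4.60 to 7.22), 4.27% of shared (3.29 to 5.53) and 1.15% of lost regions (0.448 to 2.92), against 1.79% of all windows. The AP-1 motif TGANTCA was below its share of all windows (7.81%) in every class, at 5.29%, 3.96% and 2.30%. The ZNF143-type element (ACTACA, any 2 bases, then TCC) stood in 5.53% of gained, 5.78% of shared and 8.05% of lost regions, against 1.98% of all windows. CCAAT stood in 41.0%, 32.0% and 35.9%, against 37.4%, and GGGCGG in 68.7%, 79.6% and 74.7%. The loose site of GGG and CC with any 5 bases between them, which holds many matches that are not NF-kB sites, stood in 69.0%, 76.3% and 73.6% of the same classes, against 50.8%. The narrower site of GGG, any 2 bases and TTTCC stood in 2.60%, 2.61% and 0.862%, against 1.63%. Motifs were searched on both strands, and every match of the narrower site is also one of the loose site.

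Fold enrichment within shared pairs differed by motif. At gene starts with the NRF1-type motif (562 pairs) the median fold was 16.2 in the unstimulated and 11.9 in the stimulated list, and the stimulated value was the higher in 27.9% of pairs. At gene starts without it (746 pairs) the medians were 7.80 and 12.2, with the stimulated value higher in 73.5%. Away from gene starts (1222 pairs) they were 7.85 and 15.1, with 75.1%. Fold depends on the depth and background of each library, so a value in 1 list is not a change from the other. The order of the 3 sets within each list does not rest on that scale. The motif set had the highest median of the unstimulated list and the lowest of the stimulated list. In the stimulated list the gene-start sets lay close together, with quartiles of 9.22 and 15.8 with the motif and 9.38 and 16.3 without it.

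**Figure D4:**
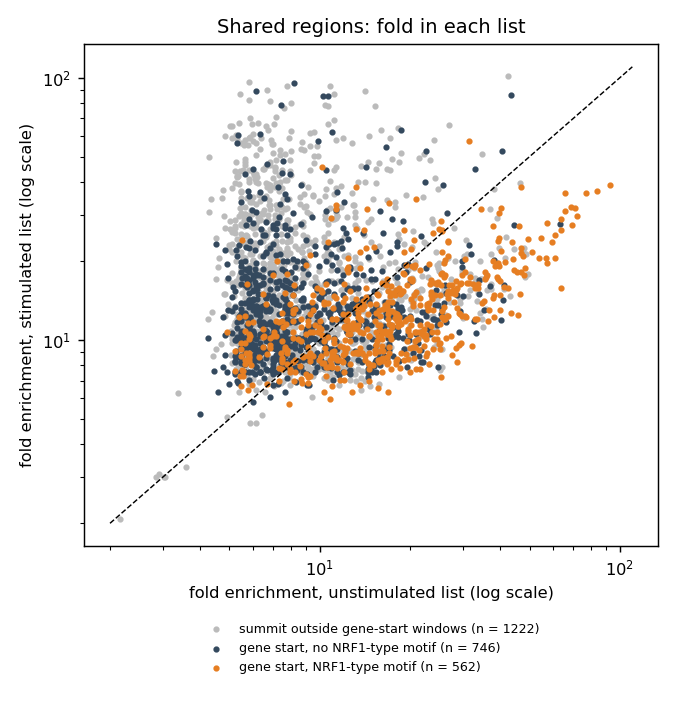
Fold enrichment of the 2530 shared pairs in the unstimulated list (x axis, log scale) and the stimulated list (y axis, log scale), values of the authors' peak caller, with the dashed line at equal values. Points are pairs, coloured by whether the unstimulated summit is outside promoter windows (1222), in a window without the NRF1-type motif (746) or in a window with it (562), and the last set lies mostly below the line.

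The strongest shared regions of the unstimulated list were at gene starts. Of the 15 strongest, 15 had the summit in a promoter window and 14 had the NRF1-type motif there. They included the starts of Sugp2 and Armc6 (92.5-fold unstimulated, 39.0-fold stimulated), Phf12, a chromatin repressor subunit (84.2 and 36.9), Rab3gap2, a regulator of Rab GTPases (77.0 and 36.4), Nadk, the NAD kinase (72.2 and 29.8), and Upf1, a helicase of nonsense-mediated decay (65.6 and 36.2). Each of these 15 regions was also in both Tconv lists. By contrast, of the 15 strongest shared regions in the stimulated list 3 had the summit in a promoter window and 0 had the motif.

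Beyond Nfkbia, the strongest stimulated shared regions included some at NF-kB feedback genes and early response genes and others at genes such as Stard7, Babam2, Ramp3 and Syne3 (81.2-fold to 86.6-fold). Among them were regions 43.2 kb from the Irf4 start inside Exoc2 (90.0-fold stimulated, 6.65-fold unstimulated), 2.52 kb before Nr4a3, an orphan nuclear receptor induced by T cell receptor signals (89.0 and 14.1), at the start of Tnfaip3, which encodes the deubiquitinase A20 (86.1 and 43.3), and at the start of Nfkbid, which encodes a nuclear IkB protein (85.3 and 10.6). A region inside Cxcr5, a follicle-homing receptor, had 86.4-fold stimulated and 5.403-fold unstimulated. All 15 were in the stimulated Tconv list and 11 in the unstimulated one.

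The gained regions that followed the 5 strongest included one beyond the end of Spry1, a Ras pathway inhibitor (86.1-fold), and others inside Lrrfip1, a nucleic acid sensor (83.8-fold), before the start of Tnf (81.2-fold, 0.137 kb before it), inside Adam10, a surface protease that sheds receptors (80.5-fold), inside Lbh (80.2-fold) and inside Inpp4b, a lipid phosphatase (76.5-fold). Of the 15 strongest gained regions, 15 were in the stimulated Tconv list and 0 in the unstimulated one, and 1 had its summit in a promoter window. The lost regions beyond the 5 strongest lay at Dynlrb2, a dynein light chain (18.9-fold), Dhx37, a ribosome assembly helicase (18.3-fold), Asnsd1 (18.3-fold), Ell, an elongation factor (17.3-fold), and Polrmt, the mitochondrial RNA polymerase (16.9-fold). All 15 of the strongest lost regions were in the unstimulated Tconv list, 8 were in the stimulated one, and 7 had the NRF1-type motif.

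For counts per gene, the strongest summit of a region was assigned to the closest protein-coding gene body, up to 50 kb away. Of 21887 protein-coding genes, 3928 had a gained region (17.9%), 2303 had a shared region (10.5%), 673 had a lost region (3.07%), and 5505 had any stimulated region (25.2%). A gained and a shared region together were found at 726 genes (3.32%). The lists of genes below were chosen with earlier results of these data known, so their counts are descriptions, set beside those percentages. Counts were not adjusted for gene length. Among genes of other cell types that a T cell preparation could hold, 0 of 6 B cell markers had a stimulated region, 1 of 6 myeloid markers did (Itgam) and 2 of 7 markers of natural killer and CD8 cells did (Klrb1c and Eomes). With lists this short, the last count is near the 25.2% of all genes. Of the B cell markers, Cd79a had an unstimulated shared region (6.47-fold), whose stimulated counterpart was not assigned to that gene. Peak lists hold no expression, so the Treg label itself could not be checked by the level of its marker genes. The 6 markers used for Treg (Foxp3, Il2ra, Ikzf2, Ctla4, Tnfrsf18 and Nrp1) each had a stimulated region.

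All 5 NF-kB subunit genes and all 6 IkB genes had a shared region, and gained regions were present at 2 and 3 of them. At Nfkb2, which encodes the p100 precursor, a single shared region at the start had 40.5-fold in the unstimulated and 52.4-fold in the stimulated list. Relb had 34.7 and 51.4, and the start of Rel, which encodes c-Rel, had 33.0 and 44.7. Rel also had 4 gained regions, the strongest 16.5 kb inside the gene at 61.2-fold. Nfkb1, the p105 gene, had a shared region of 18.2-fold and 64.3-fold and 8 gained regions of up to 34.3-fold. Rela, the gene of p65 itself, had shared regions alone, with 13.6-fold and 13.5-fold at its start and 17.3-fold and 9.38-fold past its end. At each subunit gene the strongest unstimulated value was above 8.96, the median of shared regions in that list.

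Nfkbia, which encodes IkB alpha, had its strongest shared region over the gene at 42.3-fold and 101.6-fold, a second shared region 24.4 kb outside it at 6.80-fold and 47.6-fold, and 4 gained regions. Nfkbie had 14.8-fold and 18.6-fold at its start, and Nfkbib had 13.9-fold and 25.7-fold. For Bcl3 and Nfkbiz, nuclear members of the family, the unstimulated values were 7.30-fold and 6.08-fold, below the lowest −log10 p of the stimulated list. When unstimulated regions had to reach that same −log10 p of 26.6, a shared region remained at 5 of 5 subunit genes and 4 of 6 IkB genes, against 7.33% of all genes.

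**Figure D5:**
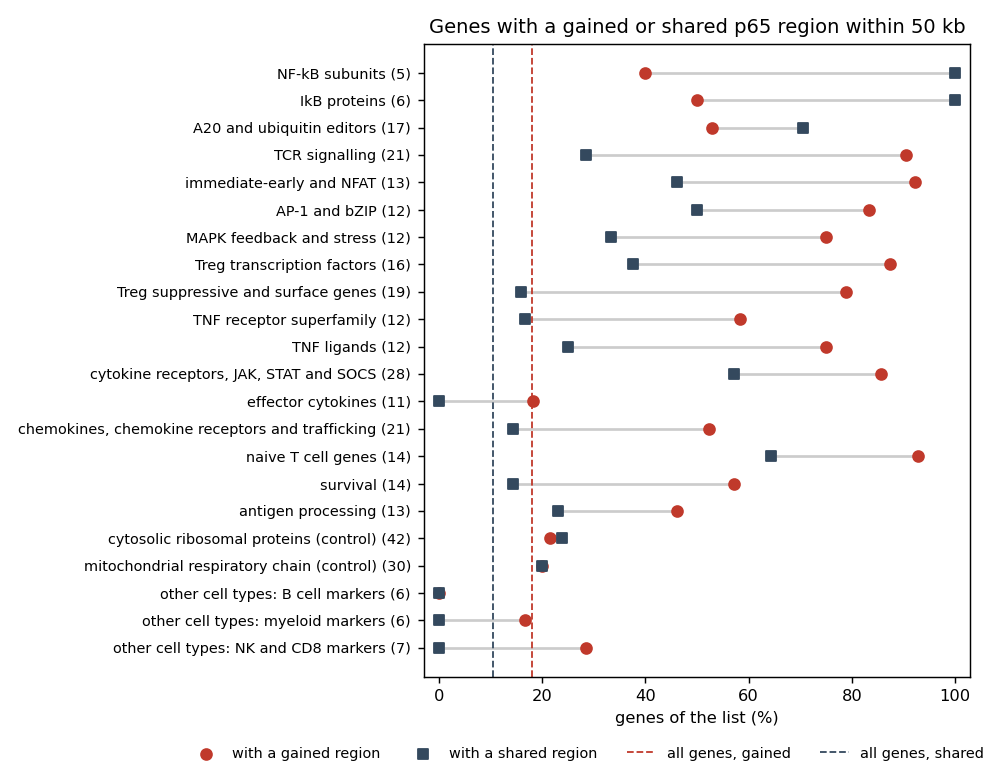
Percent of the genes of each list (x axis; number of genes in brackets on the y axis) with a gained region (circles) or a shared region (squares) within 50 kb. Dashed lines are the percentages over all 21887 protein-coding genes, 17.9% gained and 10.5% shared, and NF-kB subunit and IkB genes have the highest shared percentages, at 100%.

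Among 17 genes of A20 and the ubiquitin editors that tune NF-kB signalling, 12 had a shared and 9 a gained region. The A20 gene Tnfaip3 had 2 shared and 6 gained regions. Birc3 and Birc2, the genes of the cIAP ubiquitin ligases, had a shared region each, at 15.1-fold and 34.3-fold for Birc3 and 24.9-fold and 26.5-fold for Birc2. Otulin, a linear-ubiquitin protease, had a shared region of 24.1-fold in the unstimulated and 12.0-fold in the stimulated list, and 3 gained regions of up to 43.7-fold. Traf1 and Traf2, adaptors of TNF receptors, had 4 and 2 gained regions.

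Genes of T cell receptor signalling mostly had gained regions. Of 21 such genes, 19 had a gained region and 6 a shared one, and 14 had gained regions alone, against 14.6% of all genes. Zap70, the kinase that the receptor recruits, had a gained region of 90.2-fold 4.47 kb after its start, and another at its start of 23.8-fold. Prkcq, the gene of protein kinase C theta, had 18 gained regions of up to 36.4-fold and a shared one of 7.12-fold unstimulated and 48.5-fold stimulated. The negative regulators Cblb, a ubiquitin ligase, Ptpn22, a phosphatase, and Dgka, a diacylglycerol kinase, had 14, 9 and 3 gained regions, with strongest values of 49.6-fold, 49.5-fold and 51.6-fold. Cd3d had a shared region alone, at 11.3-fold and 57.8-fold.

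Early response genes had strong stimulated regions, and where these were shared the unstimulated counterparts were often weak. Gained regions were found at 12 of 13 immediate-early and NFAT genes and 10 of 12 AP-1 family genes, and shared regions at 6 of each list. Nr4a1 had a shared region at its start of 8.19-fold in the unstimulated and 95.3-fold in the stimulated list, and gained regions of 71.7-fold and 47.7-fold before the gene. Egr2, a zinc-finger factor, had 4 gained regions and no shared one, the strongest 0.313 kb before its start at 69.8-fold. The shared region of Fos, 26.7 kb before its start, had 5.96-fold and 66.7-fold, and the region at its start was gained at 19.3-fold. Junb had 15.7-fold and 47.3-fold after its end, and Bach2, a repressor of the AP-1 type, had 24 gained regions of up to 53.9-fold. At a common −log10 p the Fos region lost its counterpart and those of Junb and Nr4a3 kept it, and shared regions remained at 4 of 13 and 5 of 12 genes of the 2 lists.

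Gained regions lay at 9 of 12 genes of MAP kinase feedback and stress and shared regions at 4. At a common −log10 p a shared region remained at 1 of 12 (8.33%), near the 7.33% of all genes. Spry1 had 5 gained regions, and Dusp4 and Dusp6, phosphatases of MAP kinases, had 7 and 4, with strongest values of 27-fold and 29.1-fold. Dusp5 had 4 gained regions of up to 40.5-fold and a shared region of 7.85-fold and 12.7-fold.

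At the transcription factor genes of the Treg lineage, most had gained regions. Of 16 such genes, 14 had a gained region, 6 a shared one and 9 gained regions alone, and 3 kept a shared region at a common −log10 p. Foxp3, which defines the lineage, had 2 gained regions and no unstimulated one. The stronger lay inside the gene at chrX:7583694-7584964, with its summit 3.66 kb after the start and 32.1-fold, and the other at chrX:7578796-7580036, 0.204 kb before the start and 14.8-fold. Neither was in a Tconv list. Ikzf2, the gene of Helios, had 20 gained regions of up to 44.8-fold and a shared region of 5.72-fold and 9.72-fold at a gene end, and 0 of the 20 were in the stimulated Tconv list. Irf4, a factor of effector Treg, had 4 gained regions, with 56.5-fold 1.27 kb before its start. Foxo1 and Satb1 had 7 gained regions each, of up to 53.3-fold and 32.5-fold.

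Suppressive and surface genes of Treg had gained regions at 15 of 19 genes and shared regions at 3 of 19, against 17.9% and 10.5% of all genes. At a common −log10 p a shared region remained at 1 of 19 (5.26%), below the 7.33% of all genes. Ctla4, an inhibitory receptor, had 8 gained regions, with 31.3-fold 0.088 kb before its start. Icos, a co-stimulatory receptor, had 7 of up to 72.4-fold. Itgb8, an integrin chain that activates TGF-beta, had 7 of up to 63.0-fold, and Lrrc32, the gene of the TGF-beta carrier GARP, had 2 of 40.3-fold and 36.9-fold, 29.9 and 32.8 kb outside the gene. Lag3, a checkpoint receptor, had 4 of up to 32.3-fold. Of the 59 gained regions at genes of this list, 10 were in the stimulated Tconv list (16.9%, 9.48 to 28.5), and of the 76 at Treg transcription factor genes 24 were (31.6%, 22.2 to 42.7), against 42.2% (41.1 to 43.3) of the gained regions of all genes. At T cell receptor signalling genes 69 of 120 were (57.5%, 48.6 to 66.0). The cell types also differed in IL-2, and the stimulated Tconv list began at a higher −log10 p, of 38.1, so cell type, IL-2 and list length cannot be told apart in these shares.

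Among cytokine receptors and their signalling genes, 24 of 28 had a gained and 16 a shared region, the latter at 9 with a common −log10 p. Il2ra, the high-affinity chain of the IL-2 receptor and a Treg marker, had 10 gained regions along the gene, among them 49.3-fold 12.5 kb and 32.8-fold 2.74 kb after its start. Its shared region 8.95 kb after the start, at chr2:11650884-11654118, had 62.9-fold over 3235 bp in the stimulated list. Its unstimulated counterpart had 6.71-fold over 386 bp, with the summit 10.8 kb after the start, so the shared call there rests on a narrow and weak region. Il6ra, Il21r and Il4ra had 9, 4 and 4 gained regions, with strongest values of 61.2-fold, 70.1-fold and 55.7-fold, and Cish, a STAT5 target that inhibits the receptor, had 2 gained and 2 shared regions, the latter of up to 93.3-fold.

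TNF ligands had gained regions at 9 of 12 genes and TNF receptors at 7 of 12. Shared regions were at 3 and 2 of them. With a common −log10 p they were at 3 and 1, the latter (8.33%) near the 7.33% of all genes. Tnfsf8, the CD30 ligand, had 9 of up to 58.9-fold, and Fasl, the ligand of a death receptor, 9 of up to 51.7-fold. Tnfrsf8, Tnfrsf1b and Tnfrsf9, the genes of CD30, TNFR2 and 4-1BB, had 4, 7 and 5 gained regions, of up to 54.0-fold, 48.6-fold and 33.4-fold. Tnfrsf18, the gene of GITR, had 2 shared regions and no gained one, with 6.14-fold and 56.1-fold at the stronger, and the shared call ended at a common −log10 p.

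Of 11 effector cytokine genes, 2 had a gained region (Il2 and Ifng), a share near the 17.9% of all genes, and 0 had a shared one. The Il2 region was 31.2 kb outside the gene at 8.07-fold, which is below the median of gained regions, and Ifng had 4 regions of up to 34.7-fold. No Treg region was assigned to Il4, Il5, Il13, Il17a, Il17f, Il21, Il22, Il3 or Csf2. Chemokine and trafficking genes had gained regions at 11 of 21, among them Ccr7 (8 gained, up to 29.7-fold), Ccr8, a receptor of tissue Treg (4, up to 23.9-fold), and S1pr1, the exit receptor of lymph nodes (10, up to 32.3-fold).

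Genes of the naive state, several of which fall on activation, also took gained regions, at 13 of 14 genes, and shared regions at 9, or at 5 with a common −log10 p. Foxp1 had 40 gained regions over 597 kb of gene (up to 59.5-fold), Ets1 had 16, Lef1 11 and Tcf7 6. Survival genes had gained regions at 8 of 14, with Bcl2 at 16 (up to 22.4-fold), Cflar, the gene of cFLIP, at 7 (34.5-fold), Mcl1 at 5 and Bcl2l1, the gene of Bcl-xL, at 3 (35.2-fold). Antigen processing genes had gained regions at 6 of 13, with 6 regions at Nlrc5, and shared regions at 3. With a common −log10 p a shared region remained at 1 of 13 (7.69%), near the 7.33% of all genes. In the reference lists, gained regions were at 9 of 42 ribosomal protein genes and 6 of 30 respiratory chain genes, near the 17.9% of all genes. Shared regions were at 10 and 6 of them, shares above the 10.5% of all genes, and at 5 and 3 at a common −log10 p. Lost regions were at 5 and 4 of them, shares above the 3.07% of all genes, such as Rpl7, Rps9 and Cox5b, which were named after their values were seen.

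Some genes held many gained regions. Of the genes with a gained region, 2533 had 1, 1078 had 2 to 4, 255 had 5 to 9, and 62 had 10 or more (0.283% of all genes), which together held 875 gained regions. Genes with 2 or more were 6.37% of all genes. After Foxp1 came Inpp4b with 34, Akap13, a scaffold of kinases, and Prkch, a protein kinase C, with 25 each, Bach2 with 24, Arhgef3 with 23, and Ikzf2, Ptprc (CD45) and Tox with 20 each. These genes are mostly long, from 113 kb for Ptprc to 792 kb for Inpp4b. The share of their gained regions found in stimulated Tconv varied from 0 of 20 for Ikzf2 and 4 of 20 for Tox to 19 of 24 for Bach2.

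Across all gained regions, 3585 (41.9%, 40.8 to 42.9) overlapped a stimulated Tconv region and 230 (2.69%, 2.36 to 3.05) an unstimulated one. The overlap with stimulated Tconv followed strength, from 93.1% (91.1 to 94.7) in the strongest decile to 8.73% (7.10 to 10.7) in the weakest. It differed little by position, from 38.8% of regions far from genes to 44.4% of those outside but within 50 kb. Lost regions overlapped an unstimulated Tconv region in 79.2% of cases (76.0 to 82.1) and a stimulated one in 11.1% (8.98 to 13.7), and 477 of 693 (68.8%) were in the unstimulated Tconv list alone. In the 4 strongest deciles of the unstimulated list every lost region was in the unstimulated Tconv list, and in the weakest decile 50.5% were. Shared regions were in both Tconv lists in 65.4% of cases and in neither in 5.61%.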

How the data were processed

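The submitters' processing notes name the peak caller MACS2 2.1.1.20160309, the aligner BWA 0.7.15-r1140, the read trimmer Trim Galore 0.4.1, and mm10. Per the labels, whose descriptions name the lists, the deposited lists hold peaks of pooled replicates kept by a conservative reproducibility test (IDR) without blacklisted regions. How the 2 input libraries entered peak calling is not stated in the labels. The deposited fold enrichment (a ratio) of each summit and its −log10 p are the authors' values, and the deposited score is 10 times the −log10 p. The summit position is also the authors' deposited value. Fold and −log10 p were used to describe, rank or filter regions within a list. No read numbers were given, so depth is unknown.

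Entries overlapping within a list were merged (13078 entries into 11077 stimulated regions and 3442 into 3208 unstimulated ones), each region keeping its strongest summit. Genes came from RefSeq GRCm38.p6 (21887 protein-coding), and motifs were searched in its 32851 promoter windows of 300 bases from 27025 genes, since no genome sequence was used. All 331 genes of the 22 lists matched, 258 of them with a window. Exons and introns were not analysed here, and 1 gene of the T cell receptor list is not reported here. No comparison had a test, as each group has 1 list.

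The regions, gene lists, motifs and named genes were chosen with earlier results of these data known. Named genes are those of the 15 strongest regions of each class, the 15 with the most gained regions, up to 6 of each list by strongest stimulated region, and, always, Il2, Il2ra, Foxp3, Ctla4, Tnfaip3, Nfkbia, Nfkb1 and Rel. Some of these are not described. The NF-kB consensus, the set of strongest unstimulated shared regions and the limit of 15 CpG were added after the data were seen. Overlaps, assignments and motif searches were tested on simulated data. Python 3.11.15, numpy 2.4.6, pandas 2.3.3, scipy 1.17.1 and matplotlib 3.10.9 were used.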

Additional observations from a re-analysis of the deposited data

How the results depend on the processing

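No paired analysis was possible because each list pools the libraries of its group, and for the same reason no library could be left out. Every value here is a description with no test. The gained share of 77.3% was 81.2% with reciprocal overlap of at least 50%, 80.4% with summits within 200 bp, 85.4% in the upper 50% of each list, 84.8% at a common −log10 p, 72.7% with equal list lengths and 74.8% without merging. The lost share of 21.6% was, for the same settings up to equal lengths, 35.2%, 32.4%, 49.2%, 17.5% and 72.4%. Gained regions stayed below shared and lost regions in the share at gene ends and in the NRF1-type share under each of these settings.

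The share at gene ends for gained, shared and lost regions was 23.5%, 74.2% and 63.2% with reciprocal overlap and 27.7%, 74.0% and 75.6% with every gene type, 25.9% (gained) and 72.7% (shared) at a common −log10 p, and 12.3%, 52.8% and 76.1% with equal list lengths. The share in promoter windows was 15.5% (gained) and 53.4% (shared) at a common −log10 p, 53.2% (shared) and 42.9% (lost) with reciprocal overlap, 14.4% (gained) with every gene type, and 8.87%, 28.7% and 33.9% when measured at the middle of the region. The overlap with stimulated Tconv was 38.2%, 76.4% and 16.5% with reciprocal overlap, 44.5%, 85.0% and 17.3% at a common −log10 p, and 43.5% (gained) in the upper 50%. The overlap with unstimulated Tconv was 0.905% (gained) and 72.9% (lost) at a common −log10 p, 0.613%, 83.5% and 83.4% in the upper 50%, 73.9% (shared) and 68.3% (lost) with reciprocal overlap, and 5.26% (gained) with summits within 200 bp. Genes with a gained, shared or lost region numbered 8601, 5997 and 2066 when every gene within 50 kb was counted, and 350 had a lost region at a common −log10 p. The NRF1-type share was 2.76%, 31.7% and 30.8% in the 150 bases before the gene start and 6.48%, 52.4% and 47.2% at a common −log10 p. Counts of regions per named gene moved by over 1.5 times in 47 of 214 cases with 10 kb in place of 50 kb, in 10 with 200 kb and in 52 with reciprocal overlap, a setting that was added for single genes after the data were seen. The order of shared and lost regions, whose intervals overlap as reported, did turn. Shared regions were the lower in promoter windows at the middle of the region. At gene ends they were the higher with reciprocal overlap, summits within 200 bp, a common −log10 p and the middle of the region. In the NRF1-type share they were the lower with equal list lengths and without merging. In the overlap with unstimulated Tconv they were the higher with reciprocal overlap, summits within 200 bp, the upper 50% and a common −log10 p.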

Other observations

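Regions near microRNA hairpins were not part of the comparisons above. A gained region at chr16:84712605-84715058 had its summit 0.982 kb from the hairpin of Mir155, a microRNA that is induced in activated lymphocytes and that Treg need for their fitness, with 31.1-fold enrichment and a counterpart in stimulated Tconv. The cluster of Mir23a, Mir27a and Mir24-2 had a gained region 4.76 kb from the Mir23a hairpin at 47.4-fold, also in stimulated Tconv. Gained regions further lay 0.021 kb from Mir132 (in stimulated Tconv too) and 0.709 kb from Mir21a (6.47-fold, in neither Tconv list). The strongest gained region within 10 kb of Mir21a, 7.92 kb from it at 15.6-fold, was in stimulated Tconv. The other gained regions within 10 kb of Mir21a were in neither Tconv list. These hairpins were chosen after their values were seen. The mature form from the Mir155 hairpin that carries most of its known activity is printed because its role in Treg is well known (RefSeq, build GRCm38.p6, chr16:84714143-84714165, plus strand), with its seed, bases 2 to 8, in capitals.
mmu-miR-155-5p: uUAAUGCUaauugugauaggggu

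By chromosome, the share of gained regions ran from 67.9% (63.6 to 71.9) of stimulated regions on chromosome 8 to 86.9% (81.5 to 90.9) on chromosome X, leaving aside chromosome Y with 1 region.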
